A study of Mus musculus with 18 samples.

Results

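The kinesins, dynein, dynactin and tubulins, the motors of microtubule transport and the tracks they run on, were described on mouse expression arrays of motor neurons and spinal cord tissue. Members were chosen by gene symbol alone: kinesin heavy chains (Kif and a number), kinesin light chains Klc1 to Klc4, the cytoplasmic dynein and dynein light chain genes, dynactin subunits Dctn1 to Dctn6, and alpha-, beta- and gamma-tubulins. The arrays named 74 such genes among 18193, on 170 probe sets, and each gene was represented by its brightest probe set, judged by the mean of all 18 arrays. They were 15 kinesins known for transport along axons and dendrites, 3 kinesin light chains, 11 kinesins of cell division, 4 of the cilium, 7 others, 11 genes of cytoplasmic dynein, 2 of the dynein of cilia, 6 of dynactin, 4 alpha-tubulins, 9 beta-tubulins and 2 gamma-tubulins. Klc2, Kif19a, Tuba1b, Tuba1c, Tuba3a and the Dynlt1 genes other than Dynlt1f had no probe set of their own in the annotation used here. The beta-tubulins include Tubb2a-ps2, whose symbol is that of a pseudogene.

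An axon depends on transport because nearly all of its proteins are made in the cell body. Most kinesins walk towards the plus ends of microtubules, which point to the axon tip, and cytoplasmic dynein with its activator dynactin carries cargo back. Microtubules are polymers of alpha- and beta-tubulin whose isotypes differ between cell types, and gamma-tubulin starts new ones. Motor neurons have some of the longest axons of the body, and mutations of human KIF5A and DCTN1 are known causes of motor neuron disease.

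The 18 samples came from mice and fell into 6 groups of 3 arrays: SOD1 mutant and wildtype motor neurons of the spinal cord, SOD1 mutant and wildtype motor neurons of the facial nucleus of the brainstem, and SOD1 mutant and wildtype ventral spinal cord tissue. SOD1 encodes a superoxide dismutase, and its mutations cause a form of amyotrophic lateral sclerosis. Per the labels, RNA of all 6 groups was amplified linearly by a T7-based method. The labels name no SOD1 allele, transgene, strain, sex or batch, do not explain the code D60 that all 18 titles share, do not say how motor neurons were taken, and tie no sample to an animal, so p-values here measure how far these samples lie apart, which may be technical. Levels are given as log2(intensity + 16) after quantile normalization, differences and their standard errors (SE) are on this log2 scale, n is 3 arrays in each group, and a difference is said to have passed, or a gene to be called, where the limma p adjusted by the Benjamini-Hochberg method over 10916 tested genes was under 0.05. Levels below 8.79, the 40th percentile of all genes, are called background here.

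On the actin controls, signal at the 3' end over that at the 5' end, a ratio that grows as amplified RNA loses its 5' part, was 30.7 ± 7.4 (SD, n = 3) in mutant and 46.5 ± 9.1 in wildtype spinal motor neurons, 39.8 ± 17.0 in mutant and 67.6 ± 7.4 in wildtype facial motor neurons, and 1.64 ± 0.12 in mutant and 1.63 ± 0.06 in wildtype tissue. It therefore went with the kind of sample, and within motor neurons its mean was lower in mutant arrays. The mean correlation of an array with the others of its group, across genes, was 0.915 to 0.944 in motor neurons and 0.971 to 0.976 in tissue. The Sod1 probe set read higher in every mutant array than in every wildtype array of the same kind, as 16.84 to 16.87 against 16.36 to 16.45 in spinal motor neurons. The summed intensity of 7 motor neuron markers was 372550 to 385070 in mutant and 292140 to 387510 in wildtype spinal motor neurons, 289020 to 366070 in mutant and 300280 to 317320 in wildtype facial ones, and 198190 to 212210 in mutant and 212280 to 221740 in wildtype tissue. Of the 6 tested against tissue, 5 were higher in mutant spinal, 3 in wildtype spinal and 3 in wildtype facial motor neurons, and 1 was lower, in facial ones. Of all tested genes 42%, 35.5% and 41.3% were higher in the same order, and 26.9% were lower in facial ones. Chat, the enzyme of acetylcholine synthesis, averaged 9.57 in mutant and 9.43 in wildtype spinal motor neurons and was below 8.79 in tissue, while Slc5a7, the choline transporter, averaged 9.94 and 9.67 there against 10.27 in mutant and 10.08 in wildtype tissue. The summed intensity of 6 oligodendrocyte markers was 150150 to 237790 on motor neuron arrays and 607160 to 673390 on tissue arrays, so these markers were lower in the motor neuron samples but not absent. The 4 interneuron markers summed to 2418.6 to 58965 in mutant and 6259.7 to 12696 in wildtype spinal motor neurons, against 66123 to 70775 in mutant and 65156 to 73997 in wildtype tissue.

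Promoter windows of 4 members are shown: Kif22 and Tubb3 read higher in motor neurons than in tissue, and Kif1a and Tubb4a read lower. These 4 were picked by hand and not by a ranking of the contrasts, and Tuba8 differed more than Tubb3. Each line holds the 250 bases before the start of the RefSeq transcript, 5' to 3' on the strand of the gene (GRCm38.p6), from chr7:127042421-127042670 on the minus strand, chr8:123411303-123411552 on the plus strand, chr1:93101875-93102124 on the minus strand and chr17:57087601-57087850 on the minus strand. For Kif1a the table held 2 starts, and the upstream one is shown. Capitals mark 4 short motifs on either strand: CCAAT, which on the other strand reads ATTGG, then the motif TTTGAA, which there reads TTCAAA, then GGGCGG, there written as CCGCCC, and lastly TATAAA, there written as TTTATA.
Kif22: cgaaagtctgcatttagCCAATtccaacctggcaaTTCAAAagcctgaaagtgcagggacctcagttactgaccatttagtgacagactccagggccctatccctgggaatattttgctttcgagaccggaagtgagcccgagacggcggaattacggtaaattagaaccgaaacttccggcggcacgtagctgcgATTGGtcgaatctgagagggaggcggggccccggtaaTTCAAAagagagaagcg
Tubb3: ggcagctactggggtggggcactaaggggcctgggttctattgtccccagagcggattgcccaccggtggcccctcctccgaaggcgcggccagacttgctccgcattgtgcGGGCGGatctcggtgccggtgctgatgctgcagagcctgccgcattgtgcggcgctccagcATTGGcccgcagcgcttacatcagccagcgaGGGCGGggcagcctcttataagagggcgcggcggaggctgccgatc
Kif1a: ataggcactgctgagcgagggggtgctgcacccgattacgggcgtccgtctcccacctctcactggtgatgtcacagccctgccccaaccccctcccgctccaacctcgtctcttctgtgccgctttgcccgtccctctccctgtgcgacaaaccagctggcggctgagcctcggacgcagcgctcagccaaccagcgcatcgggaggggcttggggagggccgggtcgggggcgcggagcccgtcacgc
Tubb4a: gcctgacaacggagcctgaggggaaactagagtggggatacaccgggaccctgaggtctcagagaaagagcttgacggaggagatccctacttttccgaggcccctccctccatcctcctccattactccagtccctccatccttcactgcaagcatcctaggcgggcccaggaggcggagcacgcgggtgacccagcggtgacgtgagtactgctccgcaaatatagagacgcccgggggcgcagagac
Kif22 held CCAAT on each strand once and TTCAAA in 2 places, the nearer of them 17 to 12 bases before the start. Tubb3 held GGGCGG in 2 places and ATTGG in 1, and none of the 4 motifs was in the windows of Kif1a and Tubb4a. RefSeq gave windows for 59 of the 74 members, 66 windows in all. CCAAT was in 33.8% of all 32851 windows and in 40.9% of those of members, GGGCGG in 32.7% and 59.1%, TTTGAA in 16% and 16.7%, and TATAAA in 12.4% and 9.09%. Among the windows of the 10 cell division kinesins that had one, 6 held CCAAT and 5 held TTTGAA. These matches describe the letters of the windows only.

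Of the 74 members, 46 were bright enough to be tested in all 10 comparisons, 7 in some and 21 in none. The dim ones were mostly motors of dividing or ciliated cells. Of the 11 cell division kinesins, only Kif22 was tested, and the other 10, among them Kif11, which pushes spindle poles apart, and Kif23, which acts in cytokinesis, stayed below the brightness filter in every comparison. The 4 cilium kinesins Kif7, Kif9, Kif24 and Kif27 were not tested either, nor were Kif12, Kif26a, Kif28, Kif2b, Tuba3b, Tubb1 and Tubb2a-ps2. Markers of dividing cells were also dim: of the 4 on the arrays, all 4 averaged below 8.79 in wildtype tissue and 2 to 3 in each other group. Genes tested only in some comparisons were Tubb6, Dynlrb2, Dynlt1f, Klc3, Kif6, Kif17 and Kif1a.

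One gene from each class of motor or track was followed through every array. Kif5a, the neuronal kinesin-1 heavy chain, had 16.06, 16.11 and 16.29 in SOD1 mutant spinal motor neurons and 15.53, 16.27 and 15.50 in wildtype ones. In facial motor neurons it read 16.16, 15.61 and 15.94 in mutant and 15.67, 15.94 and 15.87 in wildtype arrays, and in tissue 16.47, 16.40 and 16.41 in mutants and 16.81, 16.71 and 16.70 in wildtypes. Every tissue array lay above every motor neuron array, but this order turned with the scaling of the arrays, as given with the differences between kinds. Tubb3, the beta-tubulin found chiefly in neurons, had 16.58, 16.65 and 16.62 in SOD1 mutant spinal motor neurons and 15.83, 16.52 and 16.19 in wildtype ones. In facial motor neurons it read 16.08, 15.72 and 16.23 in mutant and 15.97, 15.82 and 15.78 in wildtype arrays, and in tissue 14.65, 14.78 and 14.74 in mutants and 14.65, 14.66 and 14.73 in wildtypes. All 12 motor neuron arrays lay above all 6 tissue arrays.

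Dync1h1, the heavy chain that is the motor of cytoplasmic dynein, had 16.30, 16.25 and 15.96 in SOD1 mutant spinal motor neurons and 15.40, 16.40 and 15.60 in wildtype ones. In facial motor neurons it read 15.51, 15.39 and 15.59 in mutant and 15.50, 15.69 and 15.66 in wildtype arrays, and in tissue 15.69, 15.64 and 15.49 in mutants and 15.66, 15.71 and 15.63 in wildtypes. The 3 mutant spinal arrays and wildtype spinal replicate 2 stood above all other arrays. Dctn1, the dynactin subunit that binds microtubules, had 15.78, 15.87 and 15.87 in SOD1 mutant spinal motor neurons and 15.51, 15.89 and 15.09 in wildtype ones. In facial motor neurons it read 15.87, 15.45 and 15.72 in mutant and 15.76, 15.58 and 15.63 in wildtype arrays, and in tissue 15.09, 15.15 and 15.13 in mutants and 15.10, 15.22 and 15.18 in wildtypes. Wildtype spinal replicate 3 lay at the bottom of the tissue range and every other motor neuron array above that range. In all 4 genes wildtype spinal replicate 2 was the highest of the 3 wildtype spinal arrays.

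**Figure D1:**
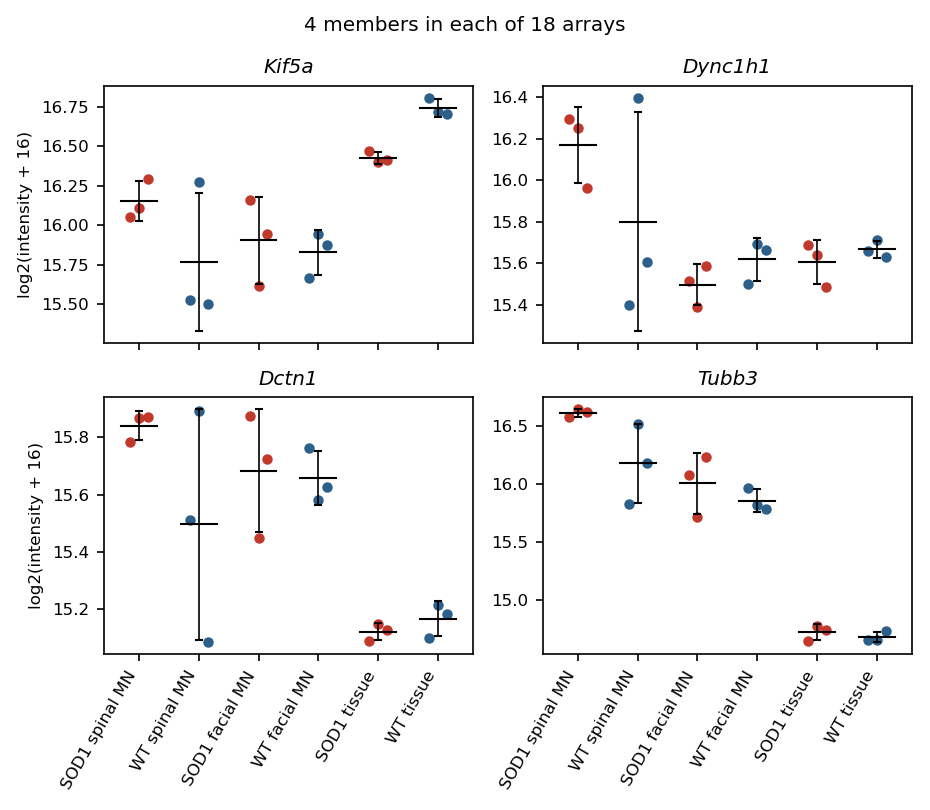
Levels of Kif5a, Dync1h1, Dctn1 and Tubb3, as log2(intensity + 16) on the vertical axes, in each of the 18 arrays (red, SOD1 mutant; blue, wildtype; MN, motor neurons), with the group mean and SD (n = 3) in black. In Dync1h1 and Dctn1 the highest wildtype spinal array, replicate 2 at 16.40 and 15.89, lies above the 3 mutant spinal arrays, and in Tubb3 all motor neuron arrays lie above all tissue arrays.

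Motor neurons were set against tissue to see which motors and tubulins differ between the cell and the cord around it. Tuba8, Tubb6, Tubb3, Tubb2a and Kif22 were higher in motor neurons and Kif1a, Kif13b, Kif1c, Kif21b and Tubb4a lower, in both genotypes of spinal motor neurons and in wildtype facial motor neurons. Kif1a averaged below background in wildtype facial motor neurons, and Tubb6 in wildtype tissue, so these were tested only through the group where they were high. In mutant spinal motor neurons 23 of 50 tested members were higher and 17 lower than in mutant tissue, where 42% and 26.8% of all tested genes were. In wildtype spinal motor neurons 20 of 50 were higher and 15 lower than in wildtype tissue, beside 35.5% and 23.1% of all tested genes. In wildtype facial motor neurons 23 of 50 were higher and 18 lower than in wildtype tissue, beside 41.3% and 26.9%. As shares of the tested members these were 46% and 34%, 40% and 30%, and 46% and 36%. The median difference of the tested members was 0.19, 0.19 and 0.25 in these 3 comparisons, and that of all genes 0.24, 0.22 and 0.22. In all of them fewer cells of a type, less RNA per cell and loss of the 5' part of amplified RNA cannot be told apart. The actin ratio averaged 30.7 to 67.6 in the motor neuron groups and 1.63 to 1.64 in the tissue groups. Both wildtype comparisons used the same 3 tissue arrays.

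The split between higher and lower depended on how the arrays were brought to one scale. The median intensity was 286 to 341 on motor neuron arrays and 533 to 583 on tissue arrays. With all arrays shifted to a common median instead of quantile normalized, 37 members were higher and 7 lower in mutant spinal motor neurons, 32 and 5 in wildtype spinal and 35 and 12 in wildtype facial motor neurons, beside 59.1% and 15.2%, 50.6% and 13.6%, and 58.2% and 15.8% of all tested genes. The deposited values with no further scaling gave 25 and 16, 22 and 14, and 24 and 17, beside 33.5% and 34%, 27.1% and 31%, and 33% and 34.7% of all tested genes. The median difference of all genes was 0.75, 0.70 and 0.77 with the common median and -0.04, -0.12 and -0.07 with the deposited values. Members that read higher mostly stayed called under all 3 scalings, 21 of 23, 17 of 20 and 20 of 23, while of those that read lower 7 of 17, 5 of 15 and 12 of 18 did. With a common median 7, 6 and 6 of the lower ones changed sign, among them Dctn2, Kif1b, Dynlrb1, Kif5a and Kif5b in each comparison. Across the 3 comparisons 17 members were called higher and 5 lower in every comparison under every scaling. The 5 were Kif1a, Kif13b, Kif1c, Kif21b and Tubb4a, and of the 17, 6 had another probe set that went the other way. These counts include Kif1a in wildtype facial motor neurons and Tubb6 against wildtype tissue, which were tested only through the group where they were high.

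**Figure D2:**
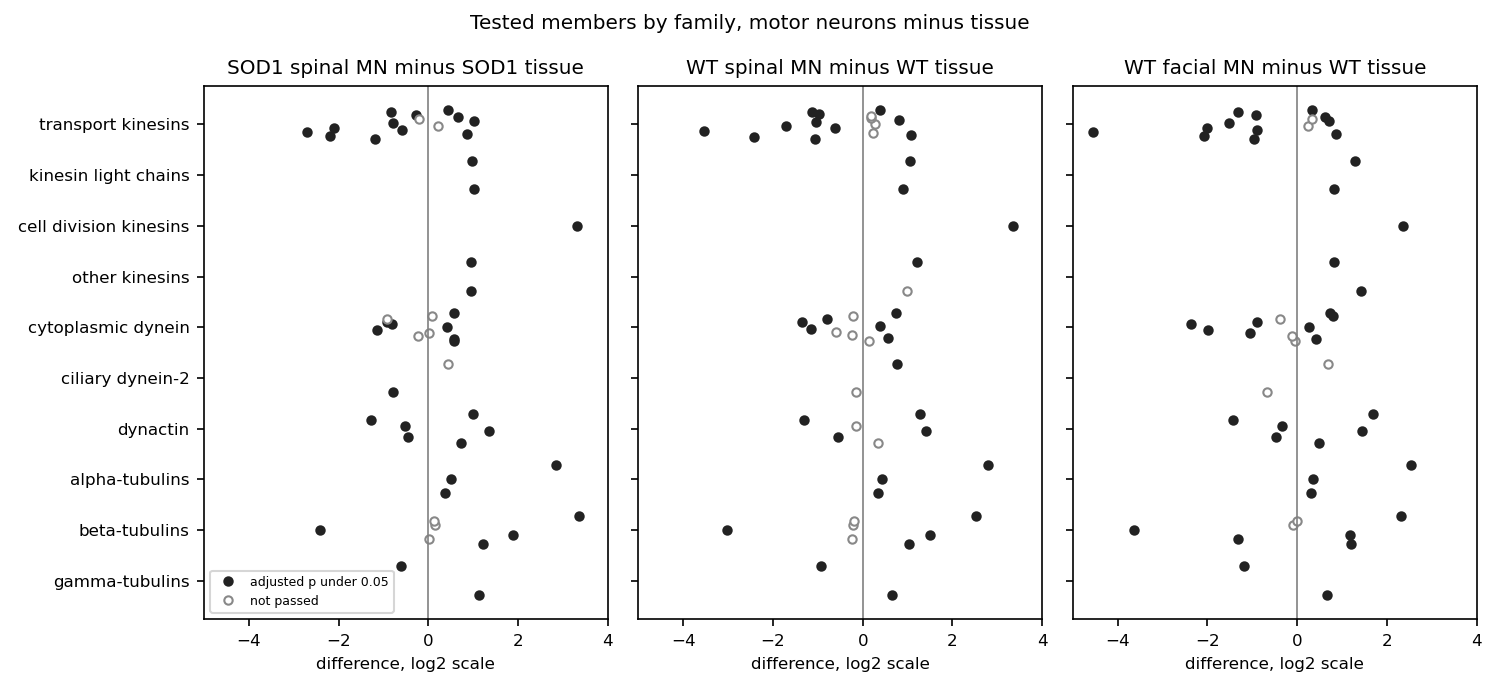
Differences of all tested members (horizontal axes, log2 scale) by family, in mutant spinal motor neurons minus mutant tissue, wildtype spinal motor neurons minus wildtype tissue and wildtype facial motor neurons minus wildtype tissue. Each circle is 1 gene, filled where the adjusted p was under 0.05: all 3 tested alpha-tubulins and both tested light chains lie to the right of 0 in each panel, while the transport kinesins spread from -2.70 to 1.02 in the first panel. The leftmost circle of the last panel is Kif1a, whose mean level in wildtype facial motor neurons was below background.

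Among the tubulins, 7 of 12 tested were higher and 2 lower in spinal motor neurons of either genotype, and 7 higher and 3 lower in wildtype facial ones; with a common median 10 were higher and 1 lower in either spinal comparison and 9 and 3 in the facial one. In the order mutant spinal, wildtype spinal and facial, 42% and 26.8%, 35.5% and 23.1%, and 41.3% and 26.9% of all genes were higher and lower with quantile normalization, and 59.1% and 15.2%, 50.6% and 13.6%, and 58.2% and 15.8% with a common median. Tuba8, an alpha-tubulin isotype, had 11.78, 11.84 and 12.15 in mutant and 11.77, 12.21 and 11.79 in wildtype spinal motor neurons, 11.29, 11.96 and 11.74 in wildtype facial motor neurons, and 9.21, 9.02 and 8.97 in mutant and 9.07, 9.34 and 8.97 in wildtype tissue. Motor neuron and tissue arrays were far apart, and the tissue levels were just above 8.79. The difference was 2.86 in mutant spinal (SE 0.19, adjusted p = 8.3e-07), 2.80 in wildtype spinal (SE 0.24, adjusted p = 2.84e-05) and 2.54 in wildtype facial motor neurons (SE 0.23, adjusted p = 3.06e-05), and its other probe set above background differed by 2.35 in the wildtype spinal comparison. Tubb6, a beta-tubulin of many tissues, had 12.24, 12.40 and 12.29 in mutant and 11.81, 10.63 and 11.02 in wildtype spinal motor neurons against 8.75, 9.32 and 8.80 in mutant and 8.55, 8.47 and 8.85 in wildtype tissue. Its tissue levels lay about the background level, with a mean of 8.62 in wildtypes, so its differences of 3.36, 2.53 and, in facial motor neurons, 2.31 are given with no fold.

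The neuronal Tubb3 was 3.71-fold higher in mutant spinal (SE 0.07, adjusted p = 3.37e-08), 2.82-fold higher in wildtype spinal (SE 0.17, adjusted p = 0.000106) and 2.26-fold higher in wildtype facial motor neurons than in tissue of the same genotype (SE 0.07, adjusted p = 3.6e-06). Tubb2a, a beta-tubulin abundant in brain, differed by 1.22, 1.02 and 1.20 in the same order. Tuba1a and Tuba4a, alpha-tubulins of neurons, rose by 0.38, 0.34 and 0.31 and by 0.50, 0.43 and 0.36. One of the other probe sets of Tuba4a differed by -0.84 in wildtype spinal motor neurons. Tuba1a held the same value, 17.40, in all 3 mutant spinal arrays. Quantile normalization gives the same value to probe sets of equal rank on their arrays. Tubg1, a gamma-tubulin, was higher by 1.14, 0.66 and 0.66, of which the wildtype spinal value did not pass with deposited values (0.52). Its paralogue Tubg2 was lower by 0.60, 0.93 and 1.18, and with a common median did not pass in either spinal comparison.

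Tubb4a, a beta-tubulin that neurons and oligodendrocytes make, went the other way. It had 13.44, 13.28 and 13.76 in mutant and 12.91, 13.63 and 12.42 in wildtype spinal motor neurons, 11.73, 12.58 and 12.77 in wildtype facial motor neurons, and 15.96, 15.93 and 15.86 in mutant and 16.04, 15.86 and 16.12 in wildtype tissue. No motor neuron array came near the tissue arrays: Tubb4a was 5.36-fold lower in mutant spinal (SE 0.12, adjusted p = 1.38e-07), 8.10-fold lower in wildtype spinal (SE 0.27, adjusted p = 3.57e-05) and 12.5-fold lower in wildtype facial motor neurons (SE 0.24, adjusted p = 6.03e-06). The 6 oligodendrocyte markers tested fell as well in each of these comparisons, with medians of -2.89, -2.67 and -2.99, and their part in the Tubb4a difference was not tested. Tubb2b, a tubulin of developing neurons, differed by 0.01 and -0.24 in spinal motor neurons, neither of which passed, and fell by 1.31 in wildtype facial ones (SE 0.20, adjusted p = 0.000502).

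**Figure D3:**
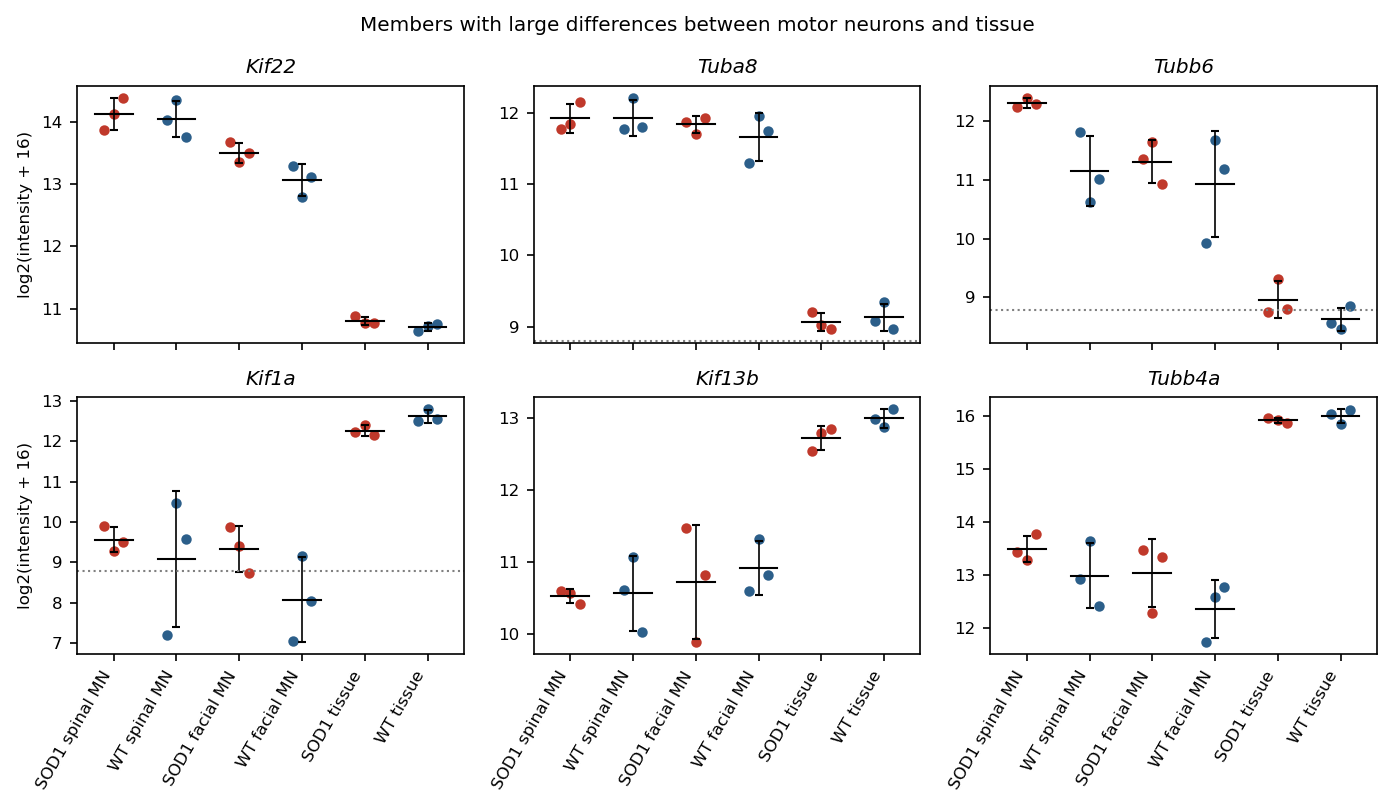
Levels of 6 members with large differences between motor neurons and tissue, as log2(intensity + 16), in each of the 18 arrays (red, SOD1 mutant; blue, wildtype; MN, motor neurons), with the group mean and SD (n = 3) in black and a dotted line at the background level of 8.79. Kif22, Tuba8 and Tubb6 lie higher in all motor neuron arrays and Kif1a, Kif13b and Tubb4a lie lower, with Kif1a in wildtype motor neurons from 7.04 to 10.47.

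The direction of the transport kinesins depended on the scaling. With quantile normalization, of 14 tested in mutant spinal motor neurons 4 were higher and 8 lower than in tissue, of 15 in wildtype spinal ones 3 and 8, and of 14 in wildtype facial ones 4 and 8, while a common median gave 8 higher and 5 lower, 7 and 4, and 8 and 5. Of all genes 42% and 26.8%, 35.5% and 23.1%, and 41.3% and 26.9% were higher and lower, and with a common median 59.1% and 15.2%, 50.6% and 13.6%, and 58.2% and 15.8%. Kif1a, which carries precursors of synaptic vesicles, had 9.89, 9.28 and 9.52 in mutant and 7.19, 10.47 and 9.58 in wildtype spinal motor neurons, 7.04, 9.15 and 8.05 in wildtype facial ones, and 12.22, 12.41 and 12.15 in mutant and 12.51, 12.81 and 12.54 in wildtype tissue. Some motor neuron arrays were at background and the wildtype ones were spread widely, so no fold is given. The differences were -2.70 in mutant (SE 0.20, adjusted p = 1.45e-06) and -3.54 in wildtype spinal motor neurons (SE 0.69, adjusted p = 0.00223). In wildtype facial motor neurons Kif1a averaged 8.08, below background, and had been tested only because of its level in tissue, so no size is given there. Mutant facial motor neurons averaged 9.34. The second probe set of Kif1a differed by -6.49 in wildtype spinal motor neurons.

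Kif13b, a kinesin-3 motor as Kif1a is, averaged 10.52 ± 0.10 in mutant and 10.56 ± 0.52 in wildtype spinal motor neurons, against 12.72 ± 0.16 in mutant and 12.99 ± 0.13 in wildtype tissue (SD, n = 3). It was 4.59-fold and 5.40-fold lower (SE 0.15, adjusted p = 9.77e-07 in mutant; SE 0.26, adjusted p = 9.5e-05 in wildtype). Kif1c, a vesicle motor found in most cell types, averaged 10.59 ± 0.49 and 10.96 ± 0.39 in mutant and wildtype spinal motor neurons and 12.70 ± 0.08 and 12.67 ± 0.02 in mutant and wildtype tissue, a fall of 2.11 in mutants and 1.71 in wildtypes. Kif21b, a neuronal motor that also restrains microtubule growth, fell by 0.78 in mutant spinal, 1.04 in wildtype spinal and 1.53 in wildtype facial motor neurons. The other Kif1c probe set above background also differed downwards, by -0.65 in wildtype spinal motor neurons, and Kif13b and Kif21b had none above background. With the mean over its 4 probe sets Kif13b differed by -0.51, -0.95 and -0.88 in mutant spinal, wildtype spinal and wildtype facial motor neurons and did not pass (adjusted p = 0.185, 0.0641 and 0.151).

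Of the kinesin-1 heavy chains, Kif5a and Kif5b changed sign with the scaling and Kif5c did not. Kif5a was lower by 0.28 in mutant spinal (SE 0.07, adjusted p = 0.00696), 0.97 in wildtype spinal (SE 0.19, adjusted p = 0.00239) and 0.91 in wildtype facial motor neurons (SE 0.08, adjusted p = 2.09e-05), but with a common median it was higher by 1.03, 0.42 and 0.55. Its second probe set differed by -4.35 in wildtype spinal motor neurons. Kif5b, the kinesin-1 heavy chain of most cells, was lower by 0.84, 1.12 and 1.32, and with a common median differed by 0.39 in mutant spinal motor neurons, which passed, and by 0.24 and 0.0074 in wildtype spinal and facial ones, which did not (adjusted p = 0.136 and 0.941). Kif5c, the other neuronal heavy chain, was higher by 0.44, 0.40 and 0.34, and stayed higher under every scaling. Of the kinesin-2 motors, Kif3a was higher by 1.02, 0.82 and 0.70 on its brightest probe set, while its 3 other probe sets above background differed by -0.11, -0.96 and -0.29 in the wildtype spinal comparison. Kif16b, a motor of early endosomes, was higher by 0.87, 1.07 and 0.86, but did not pass with deposited values in any of the 3 comparisons, nor in the facial one without wildtype tissue replicate 2 or 3 or wildtype facial replicate 2, nor in the wildtype spinal one without wildtype tissue replicate 3 (difference 0.86, adjusted p = 0.0592).

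Both tested light chains, which link kinesin-1 to cargo, were higher in every comparison with tissue. Klc1 had 16.95, 16.97 and 16.81 in mutant and 16.56, 16.97 and 16.71 in wildtype spinal motor neurons, against 16.05, 15.79 and 15.80 in mutant and 16.02, 15.77 and 15.75 in wildtype tissue. The groups did not overlap, and the differences were 1.03 (SE 0.08, adjusted p = 2.44e-06) and 0.90 (SE 0.13, adjusted p = 0.00049), with 0.83 in facial motor neurons. Its 2 other probe sets above background differed by -2.13 and -7.79 in the wildtype spinal comparison, so the direction for Klc1 belongs to 1 probe set. Klc4 was higher by 0.97, 1.05 and 1.29 and had no other probe set above background. With the mean over its probe sets it differed by 0.16 in wildtype spinal and 0.03 in wildtype facial motor neurons, neither of which passed (adjusted p = 0.679 and 0.92).

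Kif22, a kinesin that binds chromosomes in mitosis, gave the largest rise of the tested kinesins. It had 13.88, 14.12 and 14.39 in mutant and 14.03, 14.35 and 13.77 in wildtype spinal motor neurons, 13.67, 13.35 and 13.50 in mutant and 13.30, 12.79 and 13.12 in wildtype facial ones, and 10.88, 10.77 and 10.77 in mutant and 10.64, 10.72 and 10.75 in wildtype tissue. All 12 motor neuron arrays lay above all 6 tissue arrays. The difference was 3.33 in mutant spinal (SE 0.15, adjusted p = 9.34e-08), 3.35 in wildtype spinal (SE 0.19, adjusted p = 5.07e-06) and 2.37 in wildtype facial motor neurons (SE 0.16, adjusted p = 5.81e-06), and for the wildtypes this is 10.2-fold and 5.16-fold. Its probe set is one whose name ends in x_at, a type that can bind transcripts of other genes, and its 2 other probe sets averaged 8.69 and 6.26, below background. The other 10 division kinesins were too dim to be tested. Of the 5 markers of dividing cells 4 were on the arrays. Those tested were Cdk1 in mutant spinal (0.91), Cdk1 and Birc5 in wildtype spinal (median 1.38) and Birc5 in facial motor neurons (1.14). All of these were called higher, but they averaged below 8.79 in tissue and were tested only through the group where they were high. Mki67 and Top2a, not tested, averaged 6.47 and 6.44 in wildtype spinal and 7.89 and 7.94 in wildtype facial motor neurons, against 8.28 and 7.60 in wildtype tissue. The part of these markers in the Kif22 difference was not tested. Kif2a, which takes microtubules apart at their ends, was higher by 0.94, 1.21 and 0.82, but its other probe sets differed by -0.81 and -1.24 in wildtype spinal motor neurons. Kif26b was higher by 0.96 in mutant spinal and 1.43 in wildtype facial motor neurons, but by 0.19 and 0.65 with deposited values, neither of which passed.

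Cytoplasmic dynein showed no common direction. In mutant spinal motor neurons 4 of 11 tested genes were higher and 3 lower than in tissue, in wildtype spinal ones 3 of 10 and 3, and in wildtype facial ones 4 of 11 and 4, while a common median gave 8 higher and none lower, 5 and none, and 7 and 3. The shares of all genes were 42% and 26.8%, 35.5% and 23.1%, and 41.3% and 26.9%, and with a common median 59.1% and 15.2%, 50.6% and 13.6%, and 58.2% and 15.8%. Dync1i1, the intermediate chain found mostly in neurons, was higher by 0.58, 0.56 and 0.43. The light chains Dynll1 and Dynlt3 were higher by 0.41, 0.39 and 0.26 and by 0.57, 0.75 and 0.73, but 1 of the 3 other probe sets of Dynlt3 went the other way. Dync1li2, a light intermediate chain that holds cargo adaptors, was lower by 1.14, 1.16 and 1.99, values that with a common median did not pass in either spinal comparison. Dynll2, a light chain paralogous to Dynll1, was lower by 0.82, 1.35 and 2.37, while its other probe set was higher by 1.09, 1.14 and 0.53.

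The motor Dync1h1 was higher by 0.57 in mutant spinal motor neurons (SE 0.10, adjusted p = 0.000509), and its differences of 0.13 in wildtype spinal and -0.05 in wildtype facial motor neurons did not pass. Both passed under the other scalings: with a common median Dync1h1 was 1.52 higher in wildtype spinal and 1.41 higher in facial motor neurons, and with the deposited values 0.69 and 0.56 higher. Of the 2 genes of the dynein that returns cargo from cilium tips, Dync2h1 fell by 0.78 in mutant spinal motor neurons, which did not pass with a common median, and Dync2li1 rose by 0.76 in wildtype spinal ones, which did not pass with deposited values. Neither passed in facial motor neurons.

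The 6 dynactin subunits split evenly, 3 higher and 3 lower in mutant spinal and in wildtype facial motor neurons and 2 and 2 in wildtype spinal ones, but with a common median 5 and 1, 5 and 1, and 5 and none. In mutant spinal, wildtype facial and wildtype spinal motor neurons, 42% and 26.8%, 41.3% and 26.9%, and 35.5% and 23.1% of all genes were higher and lower, and with a common median 59.1% and 15.2%, 58.2% and 15.8%, and 50.6% and 13.6%. Dctn3, a subunit of the shoulder of the complex, had 15.31, 14.90 and 15.13 in mutant and 15.04, 15.04 and 15.04 in wildtype spinal motor neurons, against 13.98, 13.60 and 13.67 in mutant and 13.38, 14.02 and 13.48 in wildtype tissue. It was 2.57-fold and 2.66-fold higher (SE 0.13, adjusted p = 9.34e-06 in mutant; SE 0.18, adjusted p = 0.00021 in wildtype), with no array of tissue reaching those of motor neurons. Dctn6 and Dctn5, both of the pointed end of the complex, differed in opposite directions, Dctn6 by 0.999, 1.28 and 1.68 and Dctn5 by -1.28, -1.32 and -1.42, with -0.33 in the wildtype spinal comparison, not passing, under a common median. The second probe set of Dctn6 differed by -0.13, -0.0017 and 0.44. Dctn1 was higher by 0.72 in mutant spinal (SE 0.07, adjusted p = 8.79e-06) and 0.49 in wildtype facial motor neurons (SE 0.07, adjusted p = 0.000394), and its 0.33 in wildtype spinal ones did not pass. The wildtype spinal value passed at 1.68 with a common median (adjusted p = 9.35e-05), at 0.86 with deposited values (adjusted p = 0.00411) and at 0.54 without wildtype spinal replicate 3 (adjusted p = 0.0197), and passed downwards, at -0.57, with the mean over both probe sets (adjusted p = 0.0472). The other Dctn1 probe set went the other way, by -0.97, -1.48 and -1.09.

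The choice of probe set therefore set the direction for many members. Called members had 41 other probe sets above background in the mutant spinal comparison, 36 in the wildtype spinal and 41 in the facial one, and 14, 13 and 13 of these had a difference of the opposite sign, in 10 of 23, 9 of 20 and 10 of 23 genes. No probe set was placed along its transcript here, and whether its distance from the 3' end goes with its direction was not tested. Averaging all probe sets of a gene gave 15 members higher and 20 lower in facial motor neurons, against 23 and 18 on the brightest ones. On the brightest ones 41.3% of all tested genes were higher and 26.9% lower. The shares of all genes by direction under averaging were not counted, so this shift is not read as particular to the members.

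**Figure D4:**
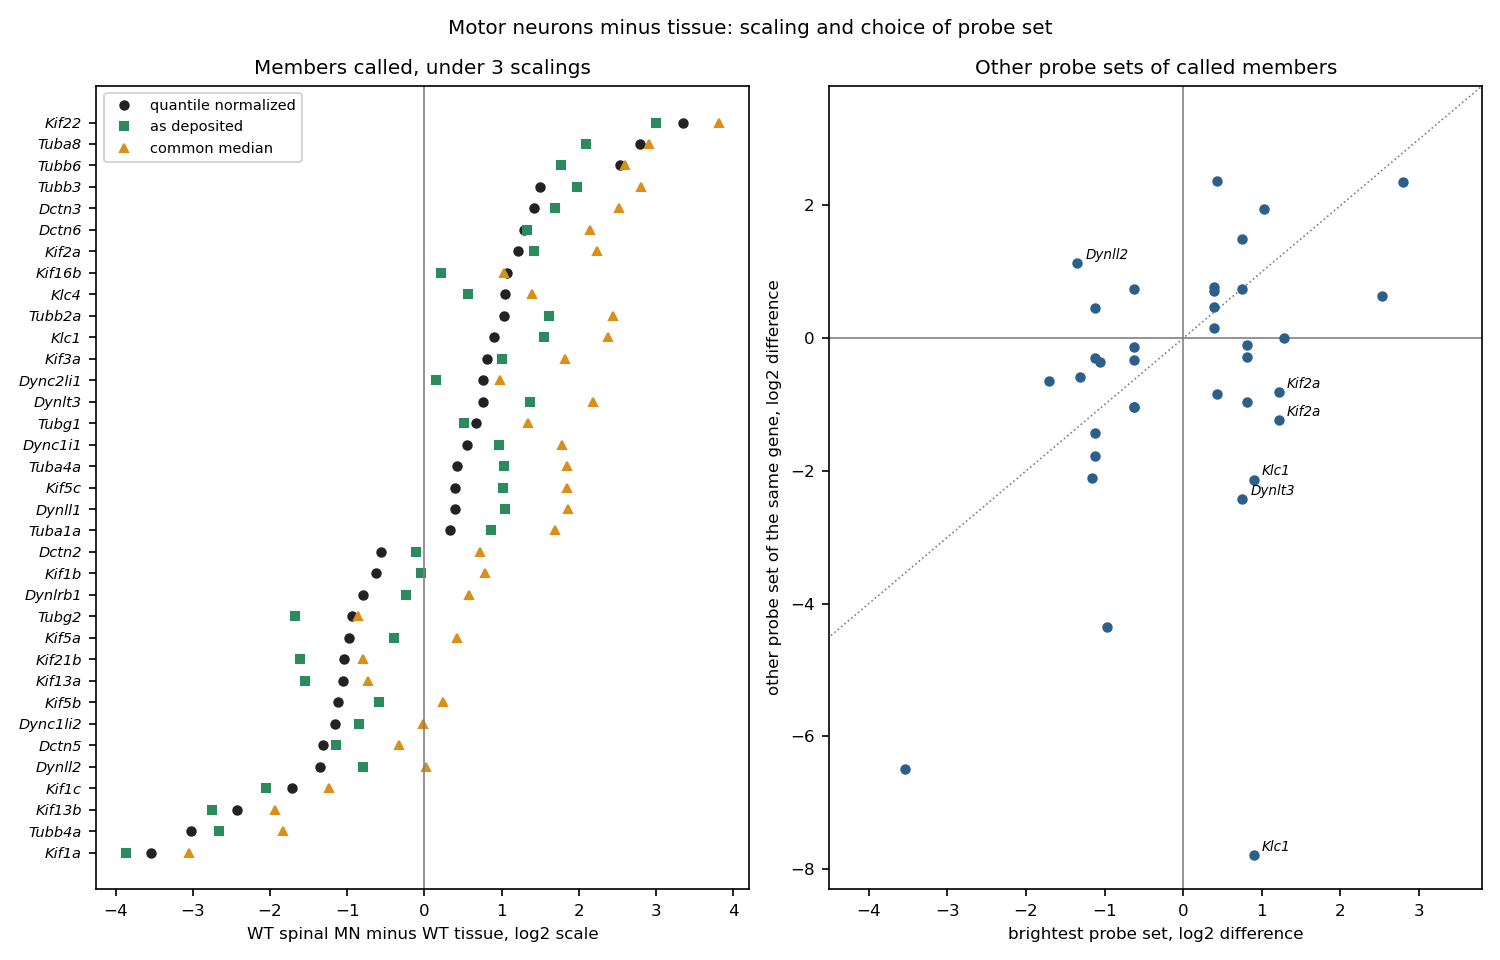
Left, the 35 members called in wildtype spinal motor neurons minus wildtype tissue, with the difference (log2 scale) under 3 ways of scaling the arrays. Right, the difference of the brightest probe set (horizontal) against that of each other probe set above background of the same gene (vertical), with names where the signs oppose and the values lie more than 2 apart: Klc1 reads 0.90 on one axis and -2.13 and -7.79 on the other. On the left the 5 members that stay called lower under every scaling are Kif1a, Tubb4a, Kif13b, Kif1c and Kif21b.

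The contrast between spinal motor neurons and tissue was repeated on arrays that share no sample, the mutant and the wildtype ones. Of the 35 members called in wildtype arrays, all 35 had the same sign in mutant arrays and 34 were called there too, beside 98.8% and 90.2% of all genes called in wildtype arrays and tested in both.

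The first question on genotype was whether SOD1 mutant cord tissue differs from wildtype tissue in its transport genes. Kif5a was lower in mutant tissue and was the only one of 50 tested members to pass, 2% beside 0.641% of all tested genes, with 6 members at an unadjusted p under 0.05. It had 16.47, 16.40 and 16.41 in mutant tissue, against 16.81, 16.71 and 16.70 in wildtype tissue. The 3 mutant arrays lay close together and below the 3 wildtype ones, a 1.24-fold difference (-0.31, SE 0.05, adjusted p = 0.0247). Its second probe set differed by -0.55. The call was kept in 1 of the 6 fits that each left out 1 array, the one without mutant tissue replicate 1 (-0.34, adjusted p = 0.0223), and was lost in the others: the adjusted p was 0.113 without mutant replicate 2, 0.194 without mutant replicate 3, and 0.0568, 0.0938 and 0.066 without wildtype replicates 1, 2 and 3. It was also lost with no mean-variance trend, with no filter on dim genes, with all 18 arrays in one fit and with the mean over all probe sets, where the adjusted p was 0.297, 0.1, 1 and 0.387.

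The 2 members next in order of p did not pass. Kif5b had 15.51, 15.52 and 15.56 in mutant and 15.77, 15.83 and 15.65 in wildtype tissue (-0.22, SE 0.06, adjusted p = 0.26), and Kif1a had 12.22, 12.41 and 12.15 in mutant and 12.51, 12.81 and 12.54 in wildtype tissue (-0.36, SE 0.12, adjusted p = 0.328). In both, as in Kif5a, no mutant array overlapped the wildtype ones. Kif5c, the remaining kinesin-1 heavy chain, read 16.10, 15.95 and 15.99 in mutant and 16.02, 16.03 and 15.99 in wildtype tissue and overlapped. Of the 15 transport kinesins 10 lay above 0 and 5 below, from -0.36 in Kif1a to 0.34 in Kif17, with a median of 0.02, but 4 lay above 0 with a common median, and 9 of 11 cytoplasmic dynein genes lay below 0 with a median of -0.03, beside -0.01 for all genes. Dync1h1 differed by -0.06, Dctn1 by -0.04 and Tubb3 by 0.04. The summed intensity of 9 microglial markers was 74181 to 80722 in mutant and 48862 to 52187 in wildtype tissue, and its part in these differences was not tested.

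In spinal motor neurons no member passed between genotypes, though the differences of the 7 tested beta-tubulins lay above 0 with quantile normalization. None of 50 tested members was called by limma, beside 0.0641% of all tested genes, and 9 members, or 18%, had an unadjusted p under 0.05, beside 9.5% of all genes. The tested beta-tubulins ran from 0.24 in Tubb2a to 1.16 in Tubb6, with a median of 0.44, and with a common median 6 of 7 lay above 0, with a median of 0.18. Tubb1 and Tubb2a-ps2 were too dim to be tested. The 3 alpha-tubulins lay between -0.01 and 0.06, and the median of all genes was 0.01. Tubb6 had 12.24, 12.40 and 12.29 in mutant motor neurons, against 11.81, 10.63 and 11.02 in wildtype ones. Mutant arrays lay together above all wildtype arrays, which were spread (1.16, SE 0.30, adjusted p = 0.309).

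Tubb3 had 16.58, 16.65 and 16.62 in mutant spinal motor neurons, against 15.83, 16.52 and 16.19 in wildtype ones. The groups did not overlap, but wildtype replicate 2 came close to the mutant arrays (0.44, SE 0.15, adjusted p = 0.452). Kif3c, a kinesin-2 motor of neurons, had 13.93, 14.20 and 13.94 in mutants, against 13.73, 13.52 and 13.34 in wildtypes (0.50, SE 0.18, adjusted p = 0.469). Tubb2b had 14.04, 13.35 and 13.27 in mutants, against 13.09, 12.59 and 12.96 in wildtypes (0.67, SE 0.24, adjusted p = 0.47). On the other side Dync2h1 lay lowest among the members (-0.72, SE 0.30, adjusted p = 0.503). Kif5a read 0.39, Dync1h1 0.37 and Dctn1 0.34, with adjusted p of 0.541, 0.583 and 0.557, and wildtype replicate 2 lay within or above the mutant range in all 3.

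Wildtype spinal replicate 2 decided these counts. Without it 8 of 51 members were called, all higher in mutants, where 6.1% of all tested genes were called: Dynll2 (0.90, adjusted p = 0.0151), Dync1h1 (0.67, adjusted p = 0.0162), Kif5a (0.64, adjusted p = 0.0116), Tubb3 (0.61, adjusted p = 0.0147), Dctn1, Tubb4b, Tubb5 and Tubb2a. Without wildtype replicate 1, Tubb6 alone was called (1.49, adjusted p = 0.0343), 1 of 49 members beside 0.284% of all genes, and leaving out any other spinal array gave none. The mutant value rests on 3 arrays and the wildtype one then on 2, which are assumed to vary alike. Replicate 2 had an actin ratio of 40.9 and a mean correlation of 0.924, against 56.9 and 0.915 in replicate 1 and 41.5 and 0.925 in replicate 3. The same 3' to 5' ratio on the Gapdh controls was 19.06 in replicate 2, against 49.68 in replicate 1 and 28.55 in replicate 3. In the mutant spinal arrays the Gapdh ratio was 20.52, 21.22 and 21.68, so replicate 2 was the wildtype array nearest to them. The part of this ratio in the calls was not tested. The 9 microglial markers summed to 48675 to 60123 in mutant and 6799 to 22204 in wildtype spinal motor neurons, where Cd68 averaged below 8.79, and their part in the tubulin differences was not tested.

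**Figure D5:**
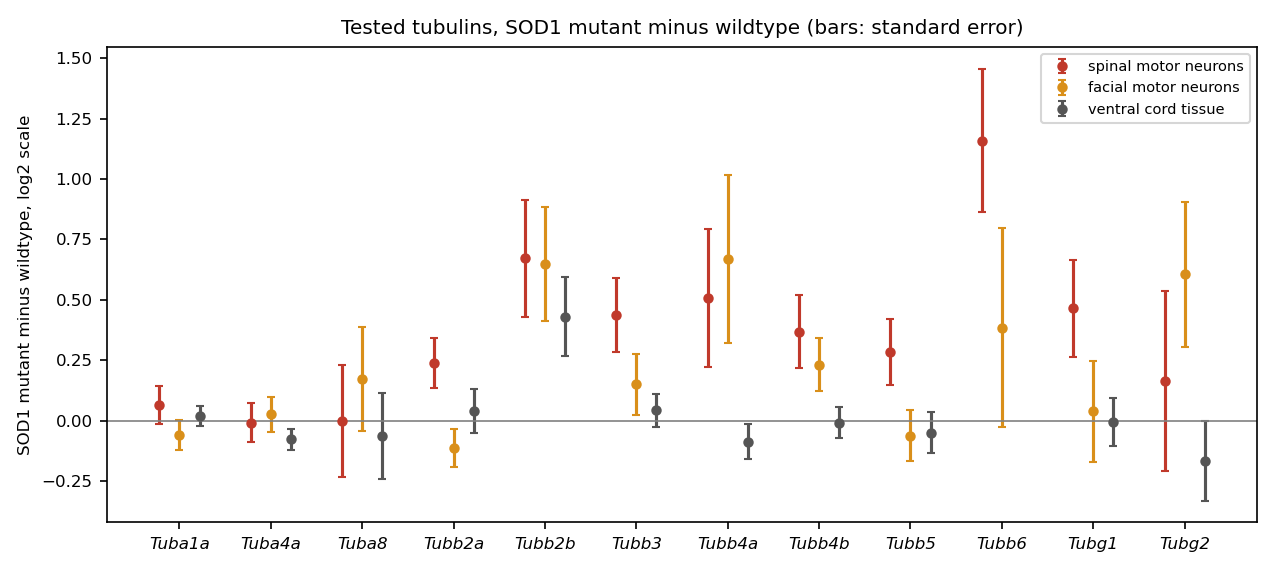
SOD1 mutant minus wildtype difference (vertical axis, log2 scale, bars: standard error from limma, n = 3 arrays per group) of the tested tubulins in spinal motor neurons, facial motor neurons and ventral cord tissue. Tubb6 was too dim to be tested in tissue. The 7 beta-tubulins lie above 0 in spinal motor neurons, from 0.24 to 1.16, and none of the differences shown passed the threshold.

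In facial motor neurons no member passed either. Limma called 0 of 50 members and 0% of all tested genes, and 10 members, or 20%, had an unadjusted p under 0.05, beside 17.9% of all genes. Dynll2 had 14.97, 14.59 and 15.68 in mutant, against 14.28, 14.24 and 14.23 in wildtype facial motor neurons. Wildtype arrays lay within a narrow band and all mutant arrays above it (0.83, SE 0.23, adjusted p = 0.148), but the other probe set of Dynll2 differed by 0.14. Kif5b had 15.01, 14.71 and 14.74 in mutants, against 14.37, 14.46 and 14.45 in wildtypes (0.39, SE 0.12, adjusted p = 0.159), and Kif1b, a motor of mitochondria and vesicle precursors, had 15.50, 15.66 and 15.66 in mutants, against 15.21, 15.42 and 15.29 in wildtypes (0.30, SE 0.10, adjusted p = 0.178). In both every mutant array lay above every wildtype one.

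Of the 7 tested beta-tubulins 5 lay above 0 in mutant facial motor neurons, with a median of 0.23 and a range of -0.11 in Tubb2a to 0.67 in Tubb4a. Kif5a differed by 0.08, Dync1h1 by -0.12, Dctn1 by 0.03 and Tubb3 by 0.15, and in all 4 the genotypes overlapped. Without mutant facial replicate 2, Dynll2 (1.08, adjusted p = 0.0369) and Tubb2b (0.89, adjusted p = 0.0483) were called, where 3.48% of all tested genes were. No other left-out array gave a call.

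Whether the genotype difference itself differed between kinds of sample was tested directly. Between spinal motor neurons and tissue limma called 0 of 51 members, beside 0.055% of all tested genes, and 3 members, or 5.88%, had an unadjusted p under 0.05, beside 8.85% of all genes. The smallest p was that of Kif5a, whose genotype difference of 0.39 in spinal motor neurons and that of -0.31 in tissue lay 0.70 apart (SE 0.22, adjusted p = 0.512). Dync1li1, a light intermediate chain of dynein, followed at 0.61 (SE 0.26, adjusted p = 0.551), then Kif3c at 0.48 (SE 0.21, adjusted p = 0.553). All 12 tested tubulins lay above 0, with a median of 0.33, though 9 of 12 did with a common median and 10 with deposited values. Dync1h1 differed by 0.43, Dctn1 by 0.39 and Tubb3 by 0.40. Here too wildtype spinal replicate 2 mattered: without it 9 of 50 members were called, all above 0, where 8.03% of all genes were, with Kif5a at 0.95 (adjusted p = 0.000897), Tubb4a at 0.92 (adjusted p = 0.0224) and Dync1h1 at 0.73 (adjusted p = 0.0123).

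Between spinal and facial motor neurons the genotype differences were also not told apart. Limma called 0 of 50 members and 0% of all genes, with 4 members, or 8%, at an unadjusted p under 0.05, beside 9.04% of all genes. The 3 smallest p were those of Kif3c at 0.64 (SE 0.22, adjusted p = 0.459), Tubb2a at 0.35 (SE 0.13, adjusted p = 0.467) and Dync1li2 at -0.54 (SE 0.23, adjusted p = 0.522). For Kif3c the genotype difference was 0.50 in spinal and -0.15 in facial motor neurons. Kif5a differed by 0.31, Dync1h1 by 0.49, Dctn1 by 0.32 and Tubb3 by 0.29. No array left out gave a call.

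Spinal and facial motor neurons were compared within each genotype; spinal ones drive muscles of limbs and trunk and facial ones those of the face. The members that passed were higher in spinal motor neurons and none was lower. In mutants 6 of 52 tested members, or 11.5%, were higher, beside 4.09% of all tested genes higher and 3.22% lower. In wildtypes 3 of 49, or 6.12%, were higher, beside 2.13% higher and 1.82% lower. Tubb2b had 14.04, 13.35 and 13.27 in mutant spinal and 12.55, 11.97 and 12.84 in mutant facial motor neurons (1.10, SE 0.26, adjusted p = 0.0243). In wildtypes it had 13.09, 12.59 and 12.96 in spinal and 11.78, 11.65 and 11.98 in facial ones (1.08, SE 0.21, adjusted p = 0.028). The sites did not overlap in either genotype, and Tubb2b has no other probe set of its own.

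Kif22 was also higher at the spinal site, by 0.62 in mutants (SE 0.17, adjusted p = 0.0449) and 0.98 in wildtypes (SE 0.21, adjusted p = 0.0348), on its x_at probe set. The mutant call was lost in all 6 fits that left out 1 array (adjusted p = 0.0576 to 0.176) and with a common median (0.56). Among the alternatives the mutant difference fell as low as 0.011. The wildtype call was kept in 1 of its 6 fits that left out 1 array. Dync1li2 was higher by 0.83 in wildtypes (SE 0.18, adjusted p = 0.035), and its 0.30 in mutants did not pass. In mutants Tubb6 was higher by 0.999 (SE 0.22, adjusted p = 0.0205), Dync1li1 by 0.73 (SE 0.20, adjusted p = 0.0483), Dync1h1 by 0.67 (SE 0.11, adjusted p = 0.00497) and Tubb3 by 0.61 (SE 0.12, adjusted p = 0.0116). For Dync1h1 the mutant spinal arrays, at 16.30, 16.25 and 15.96, all lay above the mutant facial ones, at 15.51, 15.39 and 15.59. In wildtypes Dync1h1 differed by 0.18 and Tubb3 by 0.32, neither of which passed, and Kif5a and Dctn1 passed in neither genotype, at 0.25 and 0.16 in mutants and -0.06 and -0.16 in wildtypes.

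These calls stood near the threshold. In wildtypes the count was 0 without spinal replicate 3 or any 1 of the 3 facial arrays, 2 without spinal replicate 1 and 4 without spinal replicate 2, and it was 1 with the replicate number as a block and 0 where the actin ratio entered as a covariate. In mutants it was 2 without spinal replicate 1, 3 without spinal replicate 2 or 3 or facial replicate 2, 5 without facial replicate 1 and 4 without facial replicate 3, and 2 with a common median. All 3 members called in wildtypes had the same sign in mutants and 2 were called there, beside 95.3% and 47.2% of all genes. Microglial markers moved with the site in mutants, at 48675 to 60123 in spinal and 13794 to 15422 in facial motor neurons, where 8 of 9 were called. Of 3 tested interneuron markers 1 was higher in mutant spinal motor neurons (median 2.20) and 2 in wildtype ones (median 2.88). The 4 interneuron markers on the arrays summed to 6259.7 to 12696 in wildtype spinal and 1077.4 to 2772.8 in wildtype facial motor neurons. In mutants the sums overlapped, at 2418.6 to 58965 in spinal and 2099.8 to 4723.1 in facial motor neurons. Astrocyte markers had 2 of 7 called higher in mutants and 2 of 6 in wildtypes, beside 4.09% and 2.13% of all tested genes. The part of these markers was not tested.

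Proteins that work beside the motors, a list of 51 adaptors, regulators and microtubule-binding proteins outside the naming rule, were counted in the same fits. Of them 47 were on the arrays. None was called between genotypes in any kind of sample, out of 46 tested in spinal motor neurons, 45 in facial ones and 47 in tissue. Of all tested genes 0.0641%, 0% and 0.641% were called in the same order. The medians of the list were 0.10, 0.03 and -0.04, beside 0.01, 0.02 and -0.01 for all genes. Against tissue 15 of 47 were higher and 19 lower in mutant spinal motor neurons, 10 and 17 in wildtype spinal ones, and 15 and 22 in wildtype facial ones, beside 42% and 26.8%, 35.5% and 23.1%, and 41.3% and 26.9% of all tested genes. Between the sites 4 were higher and 3 lower in mutant spinal than in mutant facial motor neurons, out of 46, and in wildtypes none was higher and 1 lower, beside 4.09% and 3.22% of all genes in mutants and 2.13% and 1.82% in wildtypes.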

How the data were processed

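Per the labels, RNA of 18 mouse samples, 3 in each of 6 groups, was amplified and hybridised to expression arrays. The authors deposited linear intensities for 45101 probe sets, and the middle of every array, leaving out 2% of probe sets at each end, averaged 2500. The image processing is not given in the sources used here.

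Symbols came from the platform annotation: 34945 probe sets had 1 symbol, 932 had several and 9224 had none or were controls. The intensity plus a pseudocount of 16 was log2 transformed and quantile normalized, 1 probe set was kept per gene, and the 10916 genes above the 40th percentile of the mean in the arrays compared were tested with limma 3.58.1 in R 4.3.3 (trended variance, Benjamini-Hochberg threshold 0.05). Each of 10 comparisons was fitted on its own groups, and the steps were tested on simulated data. The number of arrays limits the precision. Members and lists were chosen with earlier results of these data known. Members were named as follows: the 4 markers in every comparison, those called with no overlap between the arrays of the groups, up to 10 in each direction, and the 3 with the smallest p where fewer than 3 passed. Members named outside that rule were chosen after their values were seen. Promoters are those of RefSeq (GRCm38.p6).

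Alternatives changed the scaling, pseudocount, probe set rule, filter, variance trend, arrays in the fit and covariates, and left out each array in turn. One, without probe sets ending in s_at or x_at, was added after the data were seen.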

Additional observations from a re-analysis of the deposited data

How the results depend on the processing

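Of 76 named results past the threshold, 38 kept their call in every alternative run; over their 1285 alternatives 1169 kept direction and call, 96 lost the call and 20 turned. The 40 named results that did not pass had 789 alternatives, of which 769 left them so, 16 passed and 4 passed in the other direction. In 28 alternatives a direction turned with neither value past the threshold. All 24 turned values concern motor neurons minus tissue, and the cause was not tested. With a common median they were 1.03 (mutant spinal), 0.42 (wildtype spinal) and 0.55 (facial) for Kif5a, 0.44 and 0.021 for Dynll2, 0.39, 0.24 and 0.0074 for Kif5b, 0.29 for Dynlrb1 in mutant spinal and 1.41 for Dync1h1 in facial motor neurons. With the deposited scale they were 0.24 for Kif5a in mutant spinal and 0.56 for Dync1h1 in facial motor neurons. With the mean over probe sets they were -0.12, -0.57 and -0.30 for Dctn1, and -0.53 for Kif2a in wildtype spinal, -2.44 for Klc1 and 0.14 for Dynll2 in mutant spinal motor neurons. Without probe sets ending in s_at or x_at, an alternative chosen after seeing the data, they were -0.97, -1.48 and -1.09 for Dctn1 and 1.09, 1.14 and 0.53 for Dynll2.

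The count of members called between genotypes in tissue was 1, and 0 with the mean over probe sets, no filter, no trend or all 18 arrays in one fit; in facial motor neurons all 18 arrays gave 1 in place of 0. Between the sites in wildtypes, 3 members became 1 with the mean over probe sets, 0 with no trend, 6 with all 18 arrays, 1 with the replicate block and 0 with the actin ratio as a further term. In mutants 6 became 2 with a common median, 2 with the mean over probe sets and 0 with no trend. Leaving out 1 array at a time gave 0 to 1 calls between genotypes in tissue, 0 to 8 in spinal and 0 to 2 in facial motor neurons, 0 to 9 for the genotype difference between spinal motor neurons and tissue, and 0 in all 12 fits for that between spinal and facial ones. It gave 38 to 40 calls for mutant spinal motor neurons minus tissue, 31 to 38 for wildtype spinal and 38 to 44 for facial ones, and between the sites 2 to 5 in mutants and 0 to 4 in wildtypes. Whether replicate numbers in the titles pair the samples is not given by the labels and was not settled here. Deviations of same-numbered samples of different genotype correlated at 0.05 to 0.30 in tissue, 0.02 to 0.08 in spinal and 0.04 to 0.14 in facial motor neurons. Those of different-numbered samples correlated at -0.23 to 0.17, -0.06 to 0.02 and -0.13 to 0.05 in the same order. The replicate block changed no other count by more than 1.5 times. The actin ratio could not be fitted as a term where motor neurons were set against tissue, because it separates the kinds of sample. Members with levels near background, 21 of 74, could not be compared.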

Other observations

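Some tubulin and dynein light chain probe sets name several genes and so belong to no single member. The probe set shared by Tubb2a-ps2 and Tubb2b averaged 5.84 in mutant and 5.48 in wildtype spinal motor neurons, against 13.34 in mutant and 13.22 in wildtype tissue, while the probe set of Tubb2b alone had 13.55 and 12.88 in spinal motor neurons against 13.55 and 13.12 in tissue. The probe set shared by Gm5620 and Tuba1b averaged 17.36 in mutant and 17.30 in wildtype spinal motor neurons, against 17.13 and 17.11 in mutant and wildtype tissue. Of 3 probe sets shared by Dynlt1 genes, the first averaged 13.32 in mutant and 13.71 in wildtype spinal motor neurons, against 13.98 in mutant and 13.95 in wildtype tissue. Another averaged 11.45 in mutant and 12.08 in wildtype spinal motor neurons, against 13.10 in mutant and 13.17 in wildtype tissue, and the last was below background in all 6 groups. These values were not tested.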
